A study of Mus musculus with 2 samples.

Results

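The cells described here are those of the mouse second heart field at E10.5 (E, embryonic day) in which at least 1 unique molecular identifier (UMI, a tag that marks 1 captured RNA molecule) of Tbx1 and none of Epcam was counted. There were 72 such cells among the 967 cells of the E10.5 sample and the 1500 cells of both stages. The cells were chosen by their Tbx1 and Epcam counts, so these values are given as a description only. The series profiled single cells of wild-type mouse second heart field at E9.5 and E10.5, with 1 sample per stage and no mutant or treated embryos. Per the labels the cells were Osr1+, and every E10.5 and E9.5 cell held at least 1 Osr1 UMI. The barcode suffix gives the dissected position, which at E10.5 was outflow tract, anterior, middle or posterior. Tbx1-positive cells of all 4 positions were set against the 251 middle cells of E10.5 with no Tbx1 and no Epcam UMI, called middle Tbx1-zero cells below. The sources used here do not give the number or strain of the embryos, or whether they were pooled.

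Tbx1 encodes a T-box transcription factor of pharyngeal mesoderm, pharyngeal epithelium and the anterior second heart field. It is the gene most closely tied to the heart and pharyngeal defects of 22q11.2 deletion syndrome. The second heart field lies behind the early heart tube and adds muscle and smooth muscle to it: its anterior part feeds the outflow tract and right ventricle, and its posterior part the atria and the atrial septum. Osr1 encodes a zinc finger factor best known from intermediate mesoderm and the atrial side of the second heart field. Epcam, a cell adhesion protein of epithelia, was used to leave out pharyngeal and foregut epithelium, which also uses Tbx1.

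The E10.5 cells held a median of 5371 UMIs (4092 to 45943), the Tbx1-positive cells 5589.5 and the middle Tbx1-zero cells 5112. Summed counts were 421577 UMIs in Tbx1-positive cells and 1422137 in middle Tbx1-zero cells. The E9.5 cells were deeper, with a median of 30208 UMIs. Because each position was measured once, no difference below carries a test. Intervals are exact 95% intervals that cover counting error only, and cells of 1 sample are not replicates. There was 1 barcode that occurred in more than 1 E10.5 library, and no Tbx1-positive cell carried it. The doublet caller Scrublet marked 44 of 45 anterior cells and 19 of 31 outflow tract cells but 2 of 331 middle cells, so its marks were used only in an alternative.

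Tbx1-positive cells were found at every position and were scarce posteriorly. They made up 5 of 31 outflow tract cells (16.1%, interval 5.45 to 33.7%), 11 of 45 anterior cells (24.4%, 12.9 to 39.5%) and 51 of 331 middle cells (15.4%, 11.7 to 19.8%). Among posterior cells there were 5 of 560 (0.893%, 0.291 to 2.07%). The intervals of the 3 more anterior positions overlapped one another, and none overlapped that of the posterior position. After each cell was thinned to 4000 UMIs, the shares were 16.1%, 17.8%, 13.0% and 0.536% in the same order. Of the Tbx1-positive cells, 70.8% were middle cells. Summed Tbx1 levels, which follow from the counts that chose the cells, were 40.7 CPM (counts per 1000000) in outflow tract, 59.1 in anterior, 43.1 in middle and 2.03 in posterior cells. Another 7 cells had Tbx1 together with Epcam (1 to 61 UMIs), 6 of them middle and 1 posterior, and were left out by the rule.

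**Figure D1:**
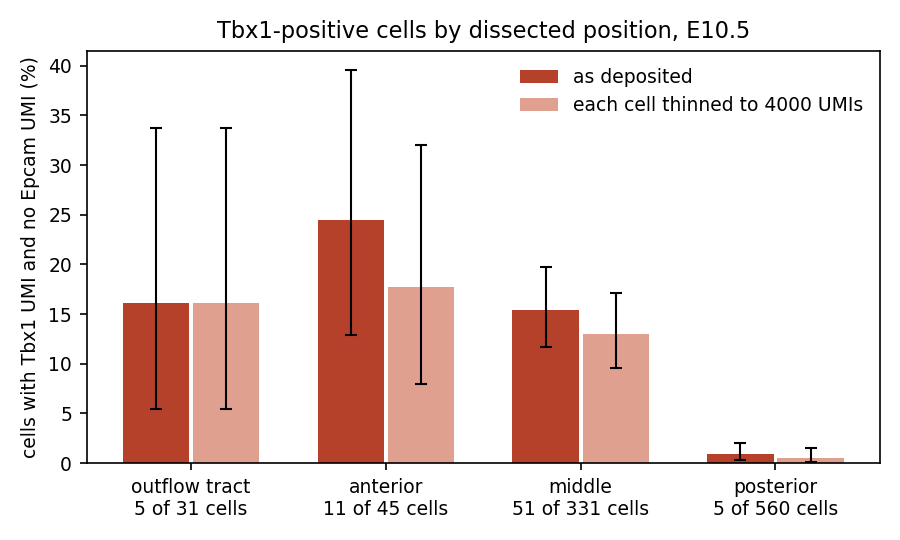
Share of cells with at least 1 Tbx1 UMI and no Epcam UMI at each dissected position of E10.5, as deposited (dark) and after thinning each cell to 4000 UMIs (light). Bars are percentages of the position's cells and error bars exact 95% intervals for counting error; the posterior share (0.893%) lies below the intervals of the other positions.

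Tbx1 counts per cell were low. Of the Tbx1-positive cells, 48 held 1 Tbx1 UMI, 16 held 2 and 8 held 3 or more, with 4 the highest count. Cells just inside the rule thus differ from cells just outside it by 1 molecule, and Tbx1-zero cells can include cells whose Tbx1 RNA was not captured. With at least 2 Tbx1 UMIs required, 3 outflow tract, 3 anterior, 17 middle and 1 posterior cells remained.

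At E9.5 the same rule chose 94 of 533 cells, and the middle position had the highest share. These were 10 of 54 anterior (18.5%), 30 of 61 middle (49.2%) and 54 of 418 posterior cells (12.9%). After thinning to 4000 UMIs the shares were 5.56% anterior, 19.7% middle and 3.90% posterior, so depth moved them strongly. The thinned posterior share was 0.536% at E10.5 (interval 0.111 to 1.56%), against 3.90% at E9.5 (2.25 to 6.26%). Each stage is 1 sample, and stage, dissection and depth cannot be told apart.

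Against middle Tbx1-zero cells, the muscle actin genes Acta2 and Actc1 had the highest ratios in Tbx1-positive cells, followed by Pcp4, Crym, Myl9 and Tagln. Leaving out haemoglobin genes, the lowest were the homeobox gene Msx2 and the basic helix-loop-helix gene Hand2. Of 6941 genes with at least 20 UMIs over both sets of cells, 86 were at least 2-fold higher (1.24%) and 119 at least 2-fold lower (1.71%) in Tbx1-positive cells. With middle Tbx1-positive cells alone, 92 of 6738 genes were at least 2-fold higher (1.37%) and 212 at least 2-fold lower (3.15%). Ratios here and below are log2 ratios of summed CPM with 5 CPM added, which understate differences of low genes, and the median over all genes was 0.0031. Counts of genes past 2-fold use these ratios, while folds printed with an interval are of CPM with none added. The genes named below are from the 15 highest and 15 lowest of these ratios that had the same direction in the 51 middle Tbx1-positive cells alone. As the extremes of 6941 ratios they are larger than an unselected gene's, which their intervals do not cover.

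**Figure D2:**
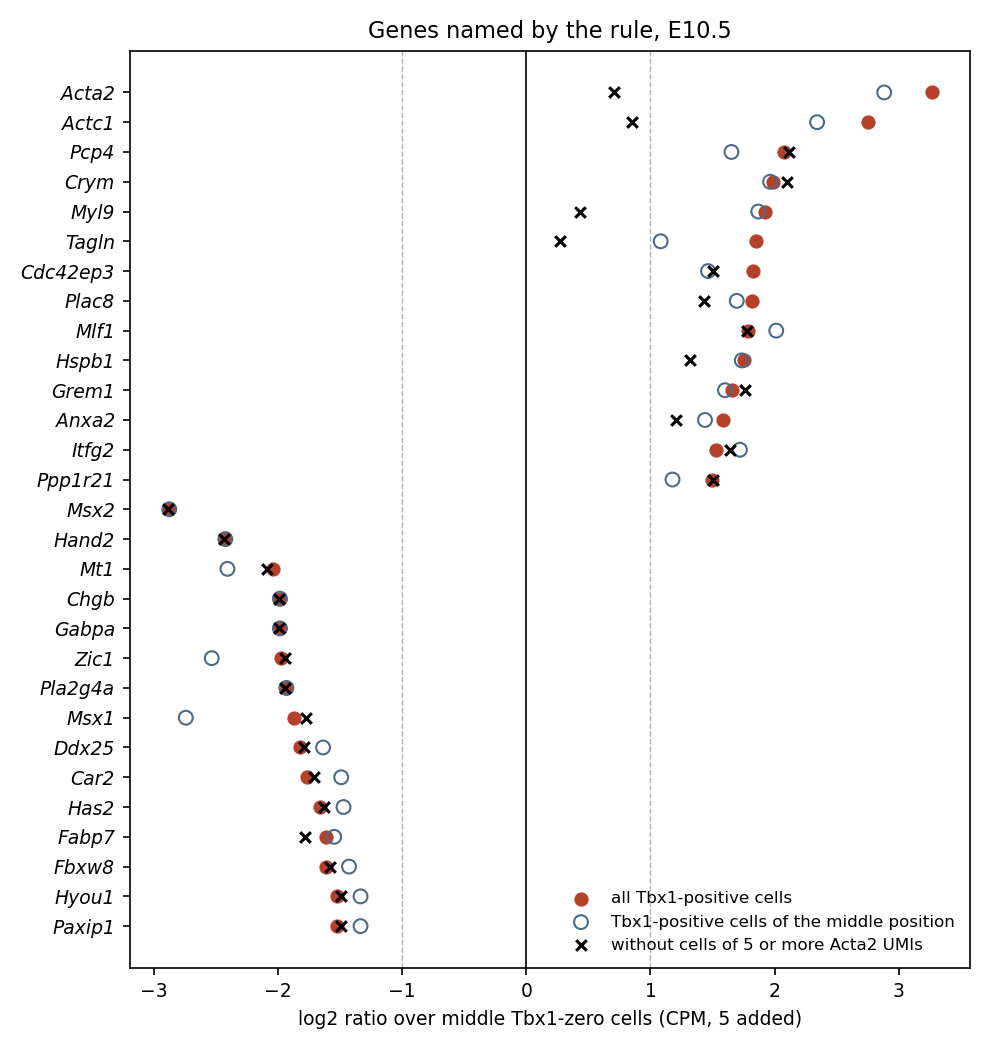
Log2 ratio (CPM with 5 added) over middle Tbx1-zero cells of genes among the 15 highest and the 15 lowest, for all Tbx1-positive cells (filled), for middle Tbx1-positive cells (open) and after cells with 5 or more Acta2 UMIs were left out of both sets (crosses). Dashed lines mark 2-fold; Acta2, Actc1, Myl9 and Tagln move inside them without those cells, and the other genes shown stay outside.

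The smooth muscle actin gene Acta2 had 331 UMIs (785 CPM) in Tbx1-positive cells, against 110 UMIs (77.4 CPM) in middle Tbx1-zero cells. That is 10.2-fold higher (interval 8.16 to 12.7). Actc1, the cardiac muscle actin, was 7.71-fold higher (5.31 to 11.4), with 96 UMIs in Tbx1-positive cells and 42 in middle Tbx1-zero cells. Myl9, a regulatory light chain of smooth muscle and non-muscle myosin, was 3.94-fold higher (3.08 to 5.03; 147 UMIs and 126 UMIs). Tagln, the actin-binding protein transgelin of early smooth muscle, was 3.67-fold higher (3.08 to 4.37; 274 UMIs and 252 UMIs). Within the middle position alone the ratios were 7.78-fold for Acta2, 5.76-fold for Actc1, 3.80-fold for Myl9 and 2.15-fold for Tagln. Acta2 and Actc1 encode near-identical actins, and the sources used here do not say how reads shared by such copies were counted.

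This signal came from few cells. Acta2 was found in 12 of 72 Tbx1-positive cells (16.7%, and 16.7% thinned) and in 13 of 251 middle Tbx1-zero cells (5.18%, and 4.38% thinned). The 154 Epcam-positive E10.5 cells, at a median of 6320.5 UMIs, had it in 4.55%, so the share in middle Tbx1-zero cells was close to what cells of another type held. Of the Tbx1-positive cells, 6 of 72 (8.33%, interval 3.12 to 17.3%) held 5 or more Acta2 UMIs, with counts of 91, 84, 71, 51, 19 and 8. Among middle Tbx1-zero cells 3 of 251 did (1.20%, 0.247 to 3.45%), with 41, 30 and 26 UMIs. The intervals of these shares overlap slightly. The 6 cells carried 324 of the 331 Acta2 UMIs, 92 of the 96 Actc1 UMIs, 238 of the 274 Tagln UMIs and 118 of the 147 Myl9 UMIs of all Tbx1-positive cells. The limit of 5 was chosen after these values were seen.

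The 6 Acta2-rich cells were 1 anterior, 3 middle and 2 posterior cells, so they did not come from 1 library. None held a UMI of Isl1, of the cardiomyocyte genes Tnnt2, Myl7 and Tnni1, or of the muscle determination genes Myod1 and Myf5. Myl4, another cardiomyocyte gene of the list, had 3 UMIs in 1 middle cell, and Actc1 was counted in all 6 cells, with 1 to 35 UMIs. Cnn1, the smooth muscle calponin, was counted in 4 of them, with 1 to 3 UMIs. Col1a1, a fibrillar collagen chain, was counted in 5 of them, with 4 to 11 UMIs. Desmin, the intermediate filament of muscle, was counted at 5 UMIs in 1 posterior cell and 1 UMI in 1 middle cell. The 3 Acta2-rich middle Tbx1-zero cells shared most of these traits. They held 6, 2 and 1 UMIs of Cnn1, 1, 3 and 2 of Col1a1, and 19, 2 and 16 of Actc1. None of the 3 held a UMI of Isl1, Tnnt2, Myl7, Tnni1, Myod1 or Myf5. Among Tbx1-zero cells of the other positions, 1 of 33 anterior, 0 of 21 outflow tract and 1 of 436 posterior cells had 5 or more Acta2 UMIs. Without cells of 5 or more Acta2 UMIs in either set, the log2 ratio was 0.71 for Acta2 (7 UMIs and 13 UMIs), 0.85 for Actc1 (4 UMIs and 5 UMIs), 0.43 for Myl9 and 0.27 for Tagln. With none added the folds were 1.98 for Acta2, 2.94 for Actc1, 1.38 for Myl9 and 1.22 for Tagln.

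**Figure D3:**
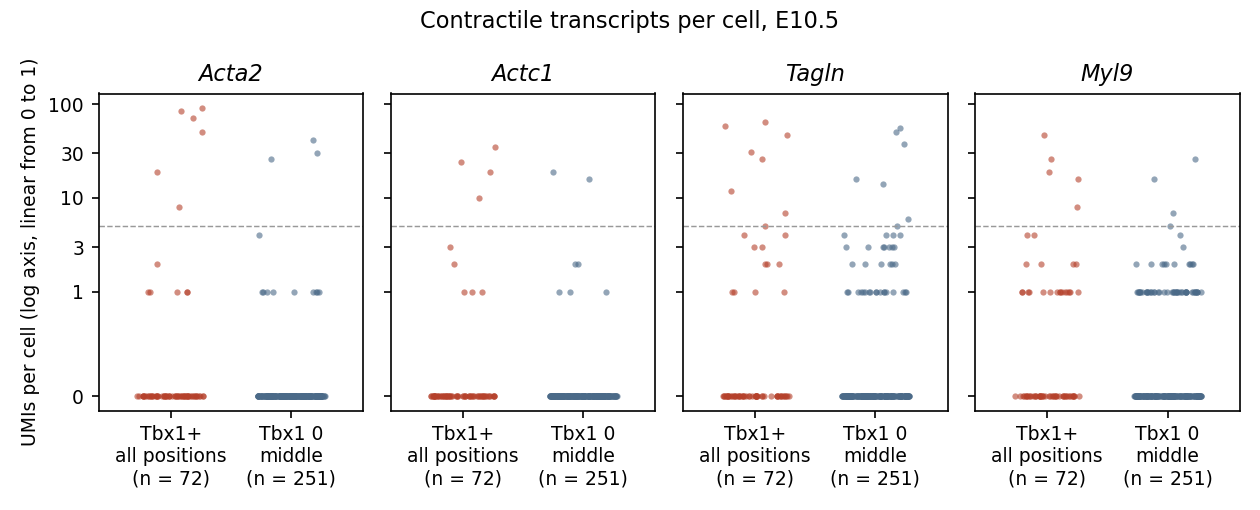
UMIs per cell of Acta2, Actc1, Tagln and Myl9 in the 72 Tbx1-positive cells of all positions (left) and the 251 middle Tbx1-zero cells (right), 1 point per cell; the axis is logarithmic above 1. The dashed line marks 5 UMIs; for Acta2, 6 Tbx1-positive and 3 middle Tbx1-zero cells lie above it and most cells of both sets are at 0.

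The promoters of these contractile genes are shown because the genes were high in the same cells. Serum response factor drives many muscle and cytoskeletal genes through the CArG box. In the RefSeq windows of GRCm38.p6, from 250 bases before to 50 after the gene start, CArG boxes with at most 1 mismatch are in capitals. Each is printed 5′ to 3′ on the gene's strand: Acta2 at chr19:34255324-34255623 (minus strand), Actc1 at chr2:114052826-114053125 (minus strand) and Myl9 at chr2:156775214-156775513 (plus strand).
Acta2: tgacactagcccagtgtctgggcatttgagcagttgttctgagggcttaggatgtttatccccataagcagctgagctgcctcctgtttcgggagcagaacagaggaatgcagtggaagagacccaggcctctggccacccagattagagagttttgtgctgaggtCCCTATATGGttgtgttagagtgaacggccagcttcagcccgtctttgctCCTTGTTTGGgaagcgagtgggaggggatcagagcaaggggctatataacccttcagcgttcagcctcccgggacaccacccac
Actc1: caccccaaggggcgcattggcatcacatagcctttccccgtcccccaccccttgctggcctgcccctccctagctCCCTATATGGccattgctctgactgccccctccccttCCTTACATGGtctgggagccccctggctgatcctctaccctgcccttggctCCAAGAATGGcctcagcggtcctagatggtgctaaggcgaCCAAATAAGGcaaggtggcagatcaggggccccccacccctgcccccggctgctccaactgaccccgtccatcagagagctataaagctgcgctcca
Myl9: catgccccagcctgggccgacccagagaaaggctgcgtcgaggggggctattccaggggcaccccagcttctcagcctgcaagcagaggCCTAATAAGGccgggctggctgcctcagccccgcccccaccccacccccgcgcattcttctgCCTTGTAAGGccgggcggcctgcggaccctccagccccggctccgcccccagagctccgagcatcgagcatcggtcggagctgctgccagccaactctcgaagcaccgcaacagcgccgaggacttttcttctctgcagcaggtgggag
The Acta2 window holds 2 boxes, both with 1 mismatch, the Actc1 window 4, of which 1 is exact, and the Myl9 window 2, of which 1 is exact. Of 32851 such windows 9.98% hold a box with at most 1 mismatch and 1.63% an exact box. The T-box half-site, searched as AGGTGTGA or TCACACCT, is in none of the 3 windows and in 1.28% of all windows. Both motifs were searched on both strands, and a match is a run of letters, not a shown binding site. Tagln has no window in the table.

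The other named genes on the higher side stayed past 2-fold without the Acta2-rich cells. Crym, the thyroid hormone-binding protein mu-crystallin, had 32 UMIs in Tbx1-positive cells and 22 in middle Tbx1-zero cells, 4.91-fold higher (2.76 to 8.86). It was counted in 16 of 72 and 12 of 251 cells (22.2% and 4.78%, or 20.8% and 3.98% thinned), against 3.25% of Epcam-positive cells. Pcp4, a calmodulin-binding peptide, was 6.75-fold higher (2.88 to 17.1; 18 UMIs and 9 UMIs). Anxa2, a calcium-dependent membrane-binding annexin, was 3.19-fold higher (2.27 to 4.49; 70 UMIs and 74 UMIs) and was counted in 30 of 72 Tbx1-positive cells and 40 of 251 middle Tbx1-zero cells. Its shares were 31.9% and 15.1% after thinning. Pcp4 was counted in 0.649% of the Epcam-positive cells and Anxa2 in 29.2%, both unthinned.

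The position of the comparison cells mattered for some of these genes. Mlf1, myeloid leukaemia factor 1, was 3.89-fold higher (2.48 to 6.14; 45 UMIs and 39 UMIs) against middle Tbx1-zero cells. Within the anterior library, however, 11 Tbx1-positive cells had 106 CPM of Mlf1, against 149 CPM in the 33 Tbx1-zero cells. Crym was at 151 CPM in anterior Tbx1-positive cells and 155 CPM in anterior Tbx1-zero cells, so these groups lay side by side. Anxa2 was at 166 CPM in anterior Tbx1-positive cells and 38.7 CPM in anterior Tbx1-zero cells. Of the 15 highest genes, 13 had a positive ratio within the anterior library, as had 896 of the 1940 genes with at least 20 UMIs there, but the 11 anterior cells are among those that chose the genes. Of these 1940 genes 2.63% were at least 2-fold higher and 5.1% at least 2-fold lower. Anxa2 had 11 UMIs and 7 UMIs there, under that minimum. Pcp4, Cdc42ep3, Plac8, Hspb1, Grem1, Itfg2 and Ppp1r21 were under it too. The share of 13 of 15 is therefore not like that of the 1940 genes. All these anterior values rest on 11 and 33 cells, and Acta2 (1434 CPM and 216 CPM) on 1 cell for 91 of its 95 UMIs.

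The remaining 6 of the 15 highest genes had 12 to 22 UMIs in the Tbx1-positive cells. They were Cdc42ep3, an effector of the GTPase Cdc42 (4.93-fold higher, 2.31 to 10.9), Plac8, a small cysteine-rich protein (4.64-fold, 2.33 to 9.45), and Hspb1, a small heat shock protein (4.91-fold, 2.14 to 11.7). Grem1, a secreted BMP antagonist, was 5.06-fold higher (1.90 to 14.3), with a log2 ratio of 0.78 after thinning against 1.66 unthinned. Itfg2, a subunit of a complex that restrains mTORC1 on lysosomes, and Ppp1r21, an endosomal protein, were 3.54-fold (1.83 to 6.89) and 3.99-fold higher (1.65 to 9.83). Itfg2, Cdc42ep3, Plac8, Hspb1 and Ppp1r21 had a UMI in 9.74 to 16.9% of Epcam-positive cells, above their shares in middle Tbx1-zero cells (3.98 to 7.97%). These shares are unthinned, and the Epcam-positive cells were deeper, with a median of 6320.5 UMIs and up to 45943. Middle Tbx1-zero cells had a median of 5112 and up to 15107.

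On the lower side, Msx2 was not counted in any Tbx1-positive cell, against 45 UMIs in 23 of 251 middle Tbx1-zero cells. Taking 3 counts as the limit that a count of 0 allows over all Tbx1-positive cells, it was at least 4.45-fold lower. Hand2, a regulator of the second heart field, limb and branchial arches, was likewise at 0, against 31 UMIs in 28 of 251 cells, at least 3.06-fold lower. A count of 0 of 72 cells allows a share of up to 4.17% of cells with a UMI, which does not limit the share of cells with uncaptured RNA of the gene. Msx1 was 4.45-fold lower (2.08 to 11.3), with 7 UMIs in 5 Tbx1-positive cells and 105 UMIs in 47 middle Tbx1-zero cells (6.94% and 18.7%, or 4.17% and 16.7% thinned). Msx genes are targets of BMP signalling. In middle Tbx1-positive cells Msx1 had 2 UMIs, and the log2 ratio there was -2.74. Within the anterior library Msx1 differed little, at 45.3 CPM in Tbx1-positive cells and 55.3 CPM in Tbx1-zero cells.

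Other genes on the lower side were sparser. Zic1, a zinc finger factor of neural and paraxial tissue, had 1 UMI in Tbx1-positive cells and 34 in middle Tbx1-zero cells, and Has2, a hyaluronan synthase, 1 and 26. Their ratios were 10.1-fold (1.69 to 410) and 7.71-fold lower (1.27 to 316), so the lower ends of the intervals were near no difference. Fabp7, a fatty acid-binding protein, was 4.15-fold lower (1.53 to 15.8; 4 UMIs and 56 UMIs). Gabpa, an ETS family factor, and Pla2g4a, a cytosolic phospholipase, were at 0 in Tbx1-positive cells against 21 and 20 UMIs, at least 2.08-fold and 1.98-fold lower. Ddx25, Fbxw8, Hyou1 and Paxip1 each had 1 UMI in Tbx1-positive cells and 23 to 30 in middle Tbx1-zero cells. Chgb, a granin of secretory cells, had 0 against 21 UMIs, and all 21 lay in 1 middle Tbx1-zero cell.

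On the lower side, Mt1 and Car2 moved with red cell RNA. Haemoglobin genes made up 0.189% of counts in Tbx1-positive cells and 0.729% in middle Tbx1-zero cells, while the medians per cell were 0.174% and 0.206%. In 4 middle Tbx1-zero cells the share was over 1%, up to 35.1%, and in no Tbx1-positive cell. The metallothionein Mt1 had 8 UMIs and 133 UMIs, and Car2, a carbonic anhydrase of red cells, 2 UMIs and 40 UMIs. Without those 4 cells the log2 ratio of Mt1 was -0.33, against -2.04 with them. That of Car2 was 0.18, against -1.77 with them. With those cells included, 6 of 7 erythroid markers with at least 20 UMIs were at least 2-fold lower in Tbx1-positive cells, against 1.71% of all genes. The other named genes stayed past 2-fold without those 4 cells.

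The second heart field lists held genes on both sides. Of 11 anterior and pharyngeal second heart field genes with at least 20 UMIs, 1 was at least 2-fold higher and 2 at least 2-fold lower, against 1.24% higher and 1.71% lower over all genes, with a median log2 ratio of -0.05. The higher gene was Foxc2, a forkhead factor of cardiovascular and paraxial mesoderm (2.92-fold, 1.28 to 6.59; 13 UMIs and 15 UMIs), whose log2 ratio in middle Tbx1-positive cells was 0.71. Beside Hand2 the lower gene was Isl1, the LIM homeobox gene that defines much of the second heart field. It had 14 UMIs (33.2 CPM) in Tbx1-positive cells and 113 UMIs (79.5 CPM) in middle Tbx1-zero cells, 2.39-fold lower (1.37 to 4.52). It was counted in 9 of 72 and 74 of 251 cells (12.5% and 29.5%, or 11.1% and 24.7% thinned). All 14 Isl1 UMIs lay in middle cells with 1 Tbx1 UMI. Within the middle position the log2 ratio was -0.68, under 2-fold. Fgf8 and Fgf10, ligands of the anterior second heart field, had 1 and 0 UMIs in Tbx1-positive cells, against 1 and 7 UMIs in middle Tbx1-zero cells, and Nkx2-5, a cardiac homeobox gene, 0 against 4. These counts are too few to tell a difference, as the Tbx1-positive cells held 421577 UMIs in all and the middle Tbx1-zero cells 1422137.

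None of 11 posterior second heart field genes passed 2-fold with 5 CPM added, against 1.24% higher and 1.71% lower over all genes. Their median log2 ratio was -0.46, with 7 of 11 below 0, and -0.18 in middle Tbx1-positive cells. Foxf1, a forkhead gene of splanchnic mesoderm, had 242 CPM in Tbx1-positive cells and 361 CPM in middle Tbx1-zero cells, 1.49-fold lower (1.21 to 1.87). It was counted in 37 of 72 and 173 of 251 cells (51.4% and 68.9%, or 48.6% and 60.6% thinned). Of its 102 UMIs in Tbx1-positive cells, 93 lay in middle and 1 in anterior cells, and the log2 ratio within the middle position was -0.19. Nr2f1, the nuclear receptor COUP-TFI, lay the other way, at 185 CPM in Tbx1-positive cells and 92.1 CPM in middle Tbx1-zero cells (2.01-fold higher, 1.50 to 2.68; log2 ratio 0.97, or 0.85 within the middle position). Its shares of cells were 56.9% and 33.5%, or 43.1% and 25.9% thinned. Tbx5, the T-box gene of the posterior second heart field and atria, had 8 UMIs and 47 UMIs (log2 ratio -0.67, interval of the fold 0.234 to 1.23).

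**Figure D4:**
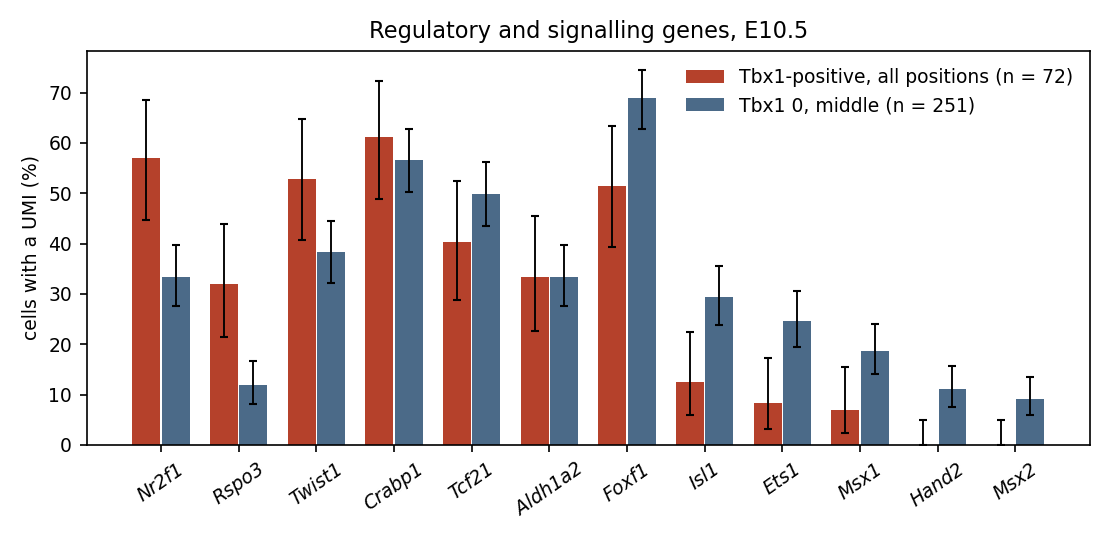
Share of cells with at least 1 UMI of 12 regulatory and signalling genes in the 72 Tbx1-positive cells of all positions (left bars) and the 251 middle Tbx1-zero cells (right bars), unthinned, with exact 95% intervals for counting error. Nr2f1 and Rspo3 are more often counted in Tbx1-positive cells; Foxf1, Isl1, Ets1, Msx1, Hand2 and Msx2 less often, with Hand2 and Msx2 at 0.

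Some levels differed by position. Twist1 and Crabp1, genes of cranial and pharyngeal mesenchyme, had log2 ratios of 0.64 and 0.34 over all Tbx1-positive cells, but -0.09 and 0.01 among middle cells. Of 85 Twist1 UMIs in Tbx1-positive cells, 26 lay in the 11 anterior and 17 in the 5 outflow tract cells. Of 179 Crabp1 UMIs, 68 lay in anterior and 11 in outflow tract cells. The 3 branchiomeric muscle genes with at least 20 UMIs stayed within 2-fold. Of these, Tcf21, a helix-loop-helix factor of head muscle and epicardium, was counted in 29 of 72 and 125 of 251 cells (log2 ratio -0.28), and Msc, musculin, had a log2 ratio of -0.01. Myf5 and Myod1 were at 0 in Tbx1-positive cells.

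Of the signalling lists, 0 of 7 FGF, 0 of 9 retinoic acid and 0 of 7 Hedgehog genes passed 2-fold, against 1.24% of all genes higher and 1.71% lower. Among 14 BMP genes 1 was higher (Grem1) and 2 lower (Msx1 and Msx2), with a median of -0.27. Among 16 Wnt genes 1 was higher, Rspo3, a secreted enhancer of Wnt signalling (2.75-fold, 1.66 to 4.54; 31 UMIs and 38 UMIs), and the median was -0.39. Rspo3 was counted in 23 of 72 and 30 of 251 cells (27.8% and 9.56% thinned), against 13.6% of Epcam-positive cells unthinned. Its log2 ratio was 0.995 without cells of 5 or more Acta2 UMIs (22 UMIs and 37 UMIs). With comparison cells weighted by position it was 0.94, and both are just under 2-fold. Of 12 genes described as regulating Tbx1 or regulated by it, Foxc2 alone passed 2-fold and the median was 0.21. None of 3 T-box, 8 Hox, 4 Iroquois or 10 semaphorin, plexin and chemokine genes passed it, nor did any of 20 S phase and 20 G2 and M phase genes (medians -0.24 and 0.10).

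Tbx1 lies on chromosome 16 (chr16:18580979-18590671, minus strand, GRCm38) among the mouse homologues of the human 22q11.2 deletion genes. Of 21 such homologues with at least 20 UMIs, 1 was at least 2-fold higher (1.24% over all genes) and 1 at least 2-fold lower (1.71% over all genes) in Tbx1-positive cells. Their median log2 ratio was -0.01. The higher was Scarf2, a scavenger receptor family protein (3.65-fold, 1.54 to 8.76; 13 UMIs and 12 UMIs), and the lower Txnrd2, mitochondrial thioredoxin reductase (3.06-fold lower, 0.956 to 15.7; 3 UMIs and 31 UMIs), whose interval includes no difference. Crkl, an adaptor protein of the same interval, had 15 UMIs and 29 UMIs (log2 ratio 0.68).

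The median of the matrix genes lay above that of all genes, and the Acta2-rich cells carried part of the type I collagen difference. Of 19 matrix genes with at least 20 UMIs, 3 were at least 2-fold higher and 1 lower, against 1.24% and 1.71% over all genes. Their median log2 ratio was 0.35, or 0.07 within the middle position. Col1a1 was 2.45-fold higher (1.77 to 3.38; 69 UMIs and 95 UMIs) and Col1a2, the partner chain of type I collagen, 2.43-fold higher (1.71 to 3.43; 59 UMIs and 82 UMIs). Without cells of 5 or more Acta2 UMIs their log2 ratios were 0.37 and 0.96. Position moved both genes too. Their log2 ratios were 1.04 and 0.68 in middle Tbx1-positive cells alone, and 0.85 and 0.84 without posterior Tbx1-positive cells. Against Tbx1-zero cells of all positions they were 1.59 and 0.22. Fbln2, the matrix protein fibulin 2, was 2.81-fold higher (1.09 to 7.10), with 8 of its 10 UMIs in anterior cells, and its log2 ratio in middle Tbx1-positive cells was -0.19. Tnc, tenascin C, was lower, with 3 UMIs and 30 UMIs (2.96-fold, 0.922 to 15.2).

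Markers of other cell types were present to different degrees. All 7 leukocyte markers and all 6 otic markers other than Epcam were at 0 in Tbx1-positive cells, as were 9 of 14 epithelial markers, Cdh1 among them. In middle Tbx1-zero cells, which held more UMIs in all, 5 of the 7, 4 of the 6 and 3 of the 14 were at 0. The leukocyte and the otic markers each summed to only 1.41 CPM there, so these zeros set the Tbx1-positive cells little apart. Summed epithelial marker levels other than Epcam were 68.8 CPM in Tbx1-positive cells and 80.9 CPM in middle Tbx1-zero cells. Summed smooth muscle marker levels were 1466 CPM and 262 CPM, with the regulator Myocd at 0 in both. Summed cardiomyocyte marker levels were 285 CPM and 68.2 CPM, of which Actc1 alone made up 228 CPM and 29.5 CPM, with Tnnt2 and Myh7 at 0 in Tbx1-positive cells. Of the other lists, 1 of 8 endothelial markers was at 0 in Tbx1-positive cells (summed 73.5 CPM and 52.0 CPM), 2 of 8 neural (40.3 CPM and 49.9 CPM), 3 of 10 paraxial mesoderm and sclerotome (97.3 CPM and 63.3 CPM), 1 of 8 mesothelial and epicardial (299 CPM and 270.0 CPM) and 2 of 8 lung and stomach mesenchyme markers (346 CPM and 495 CPM). Hepatoblast markers summed to 11.9 CPM and 4.92 CPM and nephric markers to 30.8 CPM and 24.6 CPM. These sums rest on few UMIs, as 0 of 7 hepatoblast and 1 of 6 nephric markers had at least 20 UMIs over both sets. Cranial neural crest mesenchyme markers summed to 320 CPM and 264 CPM, with Sox10, Foxd3, Tfap2a and Dlx6 at 0 in Tbx1-positive cells and Ets1 at least 2-fold lower (8 UMIs and 73 UMIs; 2.71-fold, 1.30 to 6.50). Upk3b, a mesothelial uroplakin, was 2.53-fold higher (1.09 to 5.70), with its 12 UMIs in 4 middle cells. The Tbx1-positive cells are called by their rule here and given no cell type name.

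Levels of some genes varied with the Tbx1 UMI count, on few cells or few UMIs. Acta2 was at 606 CPM in the 48 cells with 1 Tbx1 UMI, 975 CPM in the 16 with 2 and 1396 CPM in the 8 with 3 or more, but these levels rested on 4, 1 and 1 Acta2-rich cells. Isl1 was at 50.8 CPM (27.8 to 85.2) in cells with 1 Tbx1 UMI and at 0 in the 24 cells with more. The intervals of these zeros reached 39.08 CPM in cells with 2 and 71.55 CPM in cells with 3 or more, and overlapped the first. Ets1 was at 29.0 CPM, from 8 UMIs, in cells with 1 and at 0 in cells with more, where the same upper limits of 39.08 and 71.55 CPM hold. Crym was at 65.3, 84.8 and 116 CPM in the same order, with overlapping intervals (38.7 to 103, 36.6 to 167 and 42.7 to 253). Plac8 was at 25.4, 53.0 and 194 CPM, the last from 5 of 8 cells. It had 22 UMIs over all Tbx1-positive cells, and no intervals are given for these 3 levels.

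At E9.5, a sample the rule was not drawn from, only 8 middle cells held neither Tbx1 nor Epcam, at a median of 14701 UMIs against 28216 in the 94 Tbx1-positive cells. Against these 8 cells 17.6% of 8375 genes were at least 2-fold higher and 3.50% at least 2-fold lower, so a 2-fold difference there says little about a gene. Of the 15 genes highest at E10.5, 13 had at least 20 UMIs at E9.5 and 12 of them were higher in Tbx1-positive cells, as were 4688 of all 8375 genes. Set against Tbx1-zero cells of all E9.5 positions, 4 of the 13 were higher, and the share of all genes higher there was not counted. Acta2 was 244.6 CPM in E9.5 Tbx1-positive cells and 0 in the 8 middle Tbx1-zero cells, a log2 ratio of 5.64, but -1.34 against all positions. Cells with 5 or more Acta2 UMIs were 16 of 94 Tbx1-positive cells (17.0%, 10.1 to 26.2%) and 48 of 268 Tbx1-zero cells of all positions (17.9%, 13.5 to 23.0%), of which 46 were posterior.

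Only some of the genes low at E10.5 could be compared at E9.5. Of the 15 lowest, 8 did not reach 20 UMIs there, Msx1 and Msx2 among them. Hand2 was counted in 19 of 94 E9.5 Tbx1-positive cells, against 1 of 8 middle Tbx1-zero cells, and Isl1 in 46 of 94 and 4 of 8. Thinning to 4000 UMIs before the rule was applied left 31 Tbx1-positive and 30 middle Tbx1-zero cells at E9.5. In these Isl1 had 9 UMIs and 7 UMIs, Foxf1 36 UMIs and 14 UMIs, Nr2f1 18 UMIs and 15 UMIs, and Acta2 16 UMIs and 8 UMIs. Of the 7 among the 15 lowest that had at least 20 UMIs at E9.5, 2 were lower in E9.5 Tbx1-positive cells than in the 8 middle Tbx1-zero cells. In the thinned cells 4 of the 7 were lower, and 9 of the 13 compared among the 15 highest were higher. The share of all genes on either side was not counted in the thinned cells. Over all 8375 genes, 4688 were higher in E9.5 Tbx1-positive cells than in those 8 cells.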

How the data were processed

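The authors deposited 1 matrix of raw UMI counts per gene and cell for each stage. Per the labels, these are 10x Chromium libraries read on an Illumina NextSeq with mm10 as the genome. Cell Ranger 3.0 and Seurat are named in the submitters' processing notes. The authors' annotation version and cell filters are not given in the sources used here. Coordinates and promoter windows are from GENCODE vM21 on GRCm38 and RefSeq on GRCm38.p6, matched by symbol; 23 of the 30 named genes had a window.

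No cell was removed. Counts were summed over each set of cells, scaled to CPM of the set's total and compared as log2 ratios with 5 CPM added, for genes with at least 20 UMIs over both sets. Fold intervals are exact Clopper-Pearson intervals on the split of counts, and shares of cells have exact Clopper-Pearson intervals (95%). Against 0 counts, 3 counts were used. There were 1 sample per stage and no test. Thinning drew each cell to 4000 UMIs without replacement; cells under that depth were left out. The named genes are the 15 highest and 15 lowest ratios past 2-fold with the same direction in middle cells, without Tbx1, Epcam, Osr1 and mitochondrial, ribosomal protein and haemoglobin genes; lists contributed counts and examples. A gene among these 30 is not reported here. The members, lists and rule were chosen with earlier results of these data known. The computation was tested on simulated counts. Alternatives changed the Tbx1 minimum, positions, depth, cell weighting, added CPM, count minimum, scaling (TMM in edgeR 4.0.16, R 4.3.3), doublets (Scrublet in scanpy 1.11.5) and epithelial marker cells. There were 3 added after the data were seen: leaving out haemoglobin-rich cells, leaving out Acta2-rich cells and weighting comparison cells by position; so was the comparison with all positions at E9.5.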

Additional observations from a re-analysis of the deposited data

Results flagged for a closer look

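Fbxw8, a subunit of a ubiquitin ligase, and Hyou1, a chaperone of the endoplasmic reticulum, lay in opposite directions at the 2 stages. The log2 ratio of Fbxw8 was -1.61 in E10.5 Tbx1-positive cells and 1.04 in E9.5 Tbx1-positive cells, each against middle Tbx1-zero cells of its stage. That of Hyou1 was -1.52 at E10.5 and 1.89 at E9.5. Both had 1 UMI in E10.5 Tbx1-positive cells, and the E9.5 ratios rest on 8 comparison cells. The difference between stages was not tested.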

How the results depend on the processing

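No paired analysis was possible because each stage is 1 sample, so the stages share fewer than 2 replicate numbers, and the cell sets of E10.5 come from that 1 sample; values within the middle and anterior positions stand in the report. Of 600 values of named genes under the alternatives, 515 stayed within the counting interval of the reported ratio, 84 moved and 1 reversed: Car2, with a log2 ratio of 0.18 without haemoglobin-rich cells. The count of genes at least 2-fold higher (86) was 210 with at least 2 Tbx1 UMIs, 183 and 47 with 1 and 10 CPM added, 159 and 274 with at least 10 and 1 UMIs, 336 without middle Tbx1-positive cells and 141 with comparison cells weighted by position. The count at least 2-fold lower (119) was 499, 236, 44, 222, 271, 543 and 251 in the same order, 212 with middle Tbx1-positive cells alone and 519 against all positions. The 13 list genes past 2-fold were 37 against all positions, 25 with at least 2 Tbx1 UMIs, 21 with at least 1 UMI and 41 without middle Tbx1-positive cells. With at least 2 Tbx1 UMIs the Tbx1-positive share was 6.67% anterior, 5.14% middle and 0.179% posterior. Without Scrublet-marked cells, 1 anterior cell was left and the anterior share was 0%. At E9.5 the count of higher genes (1478) was 51 thinned, 439 with middle Tbx1-positive cells and 47 against all positions, and that of lower genes (293) was 32, 115 and 88. Acta2 in cells with 2 Tbx1 UMIs was 750.0 CPM thinned. Depth limits these values: Tbx1-positive cells held 421577 UMIs in all and 48 of the 72 rest on 1 Tbx1 UMI.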
